A study of Mus musculus with 43 samples.

Results

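The genes described here encode the proteins of the mitochondrial ribosome. They were taken as every gene symbol made of Mrpl or Mrps, a number and at most 1 further letter, with Mrpl53 left out, and 76 of the 35842 genes in the table of knockout oocytes fitted that rule. The same 76 symbols stood in the catalytic-dead table (35815 genes) and the morula table (35842 genes). By their known place in the ribosome, 26 belong to the small subunit and 49 to the large subunit, among them Mrps18a and Mrps30, whose proteins sit in the large subunit despite their names. The remaining gene, Mrps36, encodes a protein of the 2-oxoglutarate dehydrogenase complex rather than of the ribosome.

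Mitochondria translate the few proteins encoded in their own genome on a separate ribosome whose RNAs come from the mitochondrial genome and whose proteins are all encoded in the nucleus, made in the cytosol and imported. Part of these proteins descend from bacterial ribosomal proteins, and the rest are found only in mitochondria. The oocyte passes its mitochondria and its store of nuclear-encoded messenger RNA to the embryo, so the same transcripts can be followed before and after fertilization.

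The study measured polyadenylated RNA of mouse full-grown oocytes and morulae in which the ubiquitin mark H2AK119ub1 or its counterpart MLL2 was disturbed. Polycomb repressive complex 1 (PRC1) writes H2AK119ub1, PCGF1 and PCGF6 define variant forms of this complex, and MLL2 (gene symbol Kmt2b in the tables) methylates histone H3 at lysine 4. The first set held oocytes whose PRC1 is catalytic dead (PRC1-CD) and their wild-type controls (PRC1-WT), with 2 libraries each and 10 oocytes pooled per library. The second set held wild-type oocytes (WT), the double knockout of Pcgf1/6 (DKO) and the triple knockout of Pcgf1/6 & Mll2 (TKO), with 3 libraries each. WT, maternal DKO (matDKO) and maternal TKO (matTKO) morulae had 10 libraries each, and in these embryos the labels call only the maternal side knockout. Mouse strain, age and the way the genes were deleted are not given in the sources used here. The labels do not say whether the libraries came from separate animals, so p-values measure the spread between libraries, which may be technical.

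Libraries are compared as RPKM in both oocyte tables and as TPM in the morula table, and their sequencing depth is unknown. The deleted genes were checked first: Pcgf1 fell from 1108 RPKM (WT) to 12.3 (DKO) and 12.2 (TKO), Pcgf6 from 154 to 57.1 and 72.2, and Kmt2b was 4.85, 3.90 and 1.14. The oocyte genes Zp3 and Gdf9 had their lowest group means in the catalytic-dead set, at 1961 RPKM (PRC1-WT) and 1639 RPKM (PRC1-CD), and in the WT morulae, where Nanog was 92.3 TPM, they were 4.42 and 0.519 TPM. In the catalytic-dead set 1 of the 2 PRC1-CD libraries carries a tissue label for embryo although its title and stage say oocyte. Among the morulae, 6 libraries stood apart on the first principal component of all genes: WT 9, matDKO 6, 8 and 9, and matTKO 8 and 9.

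The promoters of 5 members are shown first: the 3 called in PRC1-CD oocytes, and the pair that fell most in TKO oocytes. They are shown because the marks under study act at promoters and CG dinucleotides set promoters apart. Of the 5 genes, Mrps26 and Mrpl36 rose in mutant oocytes, Mrpl39 and Mrpl33 fell, and Mrps10 moved both ways. Each line gives the 250 bases before the first RefSeq start site listed for the gene, on its own strand (GRCm38.p6), 5′ to 3′, with CG dinucleotides in capitals. Mrps26 lies at chr2:130563507-130563756 (plus strand), Mrpl36 at chr13:73330759-73331008 (plus), Mrpl39 at chr16:84735245-84735494 (minus), Mrps10 at chr17:47368947-47369196 (plus) and Mrpl33 at chr5:31613701-31613950 (plus).
Mrps26: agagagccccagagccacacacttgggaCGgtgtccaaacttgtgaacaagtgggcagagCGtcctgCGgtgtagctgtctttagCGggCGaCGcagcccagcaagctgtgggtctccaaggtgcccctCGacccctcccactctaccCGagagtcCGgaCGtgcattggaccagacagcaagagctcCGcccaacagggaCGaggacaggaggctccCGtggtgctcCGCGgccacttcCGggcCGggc
Mrpl36: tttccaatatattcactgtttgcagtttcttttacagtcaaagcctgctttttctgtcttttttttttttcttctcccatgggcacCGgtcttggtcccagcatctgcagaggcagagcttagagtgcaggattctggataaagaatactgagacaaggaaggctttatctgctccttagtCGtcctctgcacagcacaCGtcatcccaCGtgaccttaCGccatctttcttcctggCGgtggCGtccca
Mrpl39: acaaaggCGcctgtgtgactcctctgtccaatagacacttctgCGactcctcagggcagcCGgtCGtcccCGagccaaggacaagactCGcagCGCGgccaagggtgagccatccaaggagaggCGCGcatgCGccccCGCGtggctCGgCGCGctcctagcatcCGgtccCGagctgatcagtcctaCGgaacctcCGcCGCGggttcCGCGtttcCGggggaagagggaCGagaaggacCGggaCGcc
Mrps10: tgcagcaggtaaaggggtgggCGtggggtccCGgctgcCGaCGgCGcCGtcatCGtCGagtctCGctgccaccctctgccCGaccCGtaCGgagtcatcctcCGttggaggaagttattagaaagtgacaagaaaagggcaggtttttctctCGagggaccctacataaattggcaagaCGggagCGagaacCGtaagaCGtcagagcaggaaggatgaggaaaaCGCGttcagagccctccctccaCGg
Mrpl33: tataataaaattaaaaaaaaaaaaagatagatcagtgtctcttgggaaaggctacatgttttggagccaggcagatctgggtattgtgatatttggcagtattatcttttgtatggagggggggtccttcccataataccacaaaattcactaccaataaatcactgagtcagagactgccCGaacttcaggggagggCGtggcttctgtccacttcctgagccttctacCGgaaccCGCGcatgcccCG

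The number of CG dinucleotides in these windows was 17 in Mrps26, 7 in Mrpl36, 28 in Mrpl39, 21 in Mrps10 and 6 in Mrpl33. The genes that fell in TKO oocytes thus included the richest and the poorest of the 5 windows. All but the Mrps26 window lie wholly inside the gene as annotated by GENCODE. Its outermost starts are chr13:73328513 (Mrpl36), chr16:84735742 (Mrpl39), chr17:47368887 (Mrps10) and chr5:31596935 (Mrpl33). Windows of other starts were not looked at. RefSeq promoters were matched for 67 of the 76 members. Their median was 17 CG dinucleotides in 250 bases and a GC content of 58.4%, against 6 and 52.0% over 27025 mouse promoters. Members that rose in TKO oocytes had a median of 18.5 (26 promoters), members that fell 16 (11 promoters) and members not called 15 (30 promoters). The letters CCGGAAG, which fit ETS-family factors, stood on either strand in 22.4% of member windows and in 7.05% of all windows. The NRF1 motif in its palindromic form stood in 4.48% against 0.781%, AAGATGGC (YY1) in 5.97% against 1.59%, TTCCCGC (E2F) in 5.97% against 3.84% and CACGTG (E-box) in 7.46% against 6.05%. None of these 5 motifs contains another. In the printed windows CCGGAAG was found in Mrps26 (14 bases before the start, on the other strand), the NRF1 motif in Mrpl39 (125 bases before the start), and CACGTG (43 bases before) and AAGATGGC (30 bases before, other strand) in Mrpl36. None of the 5 motifs was found in the Mrps10 or Mrpl33 window. Such matches describe letters only.

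In the oocytes of the WT group the members ranged from 0.423 to 1009 RPKM, with a median of 79.2. The highest was Mrps33 at 1009 ± 29.9 RPKM (SD, n = 3), a small-subunit protein found only in mitochondria. It was followed by Mrpl48 at 767 ± 14.1 and Mrps36 at 746 ± 40.7, whose spreads overlap, and by Mrps18c at 474 ± 7.39 and Mrpl14 at 451 ± 17.9, which also overlap. The first 3 made up 22.7% of the summed level. At the other end stood Mrpl19 at 0.423 ± 0.162 and Mrps34 at 0.433 ± 0.0681 RPKM, far below the next members, Mrpl17 at 8.30 ± 0.125, Mrpl43 at 10.6 ± 0.954 and Mrpl49 at 11.6 ± 0.543. Mrpl19 encodes a large-subunit protein with a bacterial homologue and Mrps34 a small-subunit protein found only in mitochondria. In no oocyte library did Mrpl19 exceed 0.960 RPKM or Mrps34 exceed 2.17.

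In WT morulae the order was different. Mrpl33, a large-subunit protein with a bacterial homologue, was highest at 939 ± 80.0 TPM (SD, n = 10), followed by Mrps18c at 541 ± 67.6, Mrpl42 at 540 ± 90.2, Mrps18b at 533 ± 74.4 and Mrps24 at 478 ± 80.9, and the spreads of these 4 overlap. The lowest were Mrpl19 at 19.8 ± 3.91, Mrps25 at 26.4 ± 2.92, Mrpl50 at 28.0 ± 8.71, Mrpl41 at 31.6 ± 6.30 and Mrps27 at 35.1 ± 8.01. Across the 76 genes the rank correlation of the WT oocyte and WT morula means was 0.565, given as a description of genes that share libraries. The oocyte and morula tables were normalised separately, so levels were set across them only as shares of each library total and without a test. On that scale 45 members had the larger share in morulae and 31 in oocytes. Mrps34 made up 0.649 ppm of the WT oocyte total and 181 of the WT morula total, Mrpl19 0.634 and 19.8, and Mrps26 18.5 and 127. In the other direction Mrpl48 went from 1149 to 70.9 ppm, Mrps36 from 1118 to 113 and Mrps33 from 1511 to 219. In bulk samples less RNA per cell and fewer cells cannot be told apart, and a share also moves with all other RNAs.

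**Figure D1:**
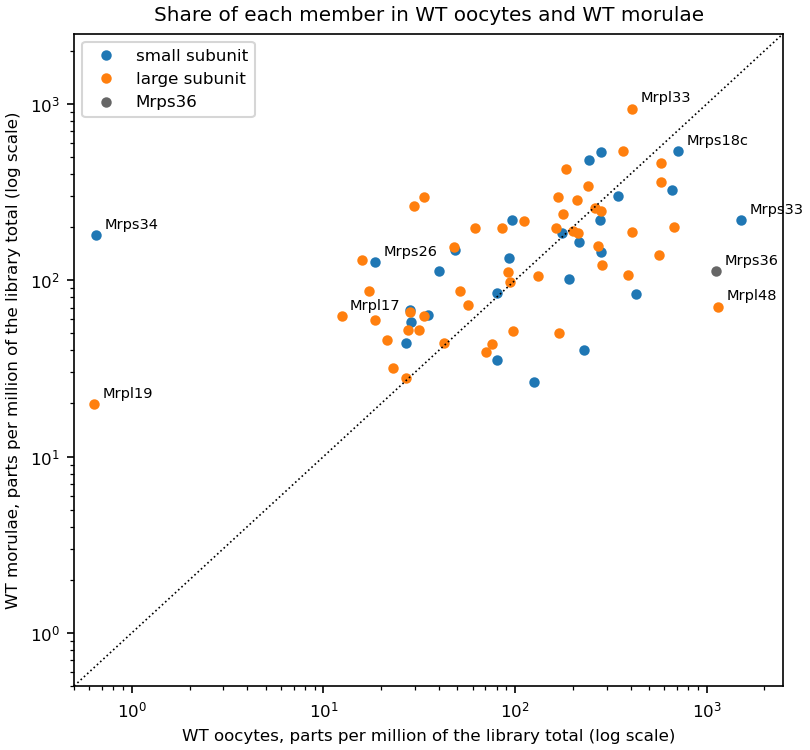
Share of the library total taken by each of the 76 members in WT oocytes (x axis, mean of 3 libraries) and WT morulae (y axis, mean of 10 libraries), both in ppm on log scales, coloured by subunit, with a dotted line of equal share. Mrps34 and Mrpl19 sit at the far left, below 1 ppm in oocytes, and Mrps33, Mrpl48 and Mrps36 at the right lie well below the line.

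Summed over the members, the level changed little. The 76 genes made up 1.61 ± 0.0864% of the library total in PRC1-WT and 1.56 ± 0.124% in PRC1-CD oocytes (SD, n = 2 each). The share was 1.66 ± 0.0307% in WT, 1.67 ± 0.0174% in DKO and 1.71 ± 0.0336% in TKO oocytes (n = 3 each), and the ranges of WT (1.63 to 1.69%) and TKO (1.67 to 1.73%) overlap. In morulae it was 1.34 ± 0.113% in WT, 1.21 ± 0.150% in matDKO and 1.25 ± 0.167% in matTKO (n = 10 each), with ranges of 1.15 to 1.52%, 0.980 to 1.42% and 0.983 to 1.55%. Single members moved far more than the sum, in both directions.

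In PRC1-CD oocytes few members changed: 2 rose (Mrps26 and Mrpl36), 1 fell (Mrpl39) and 72 of the 75 tested did not pass the test. The test was limma on log2(RPKM + 1) over all genes with a mean of at least 1 RPKM in 1 group, and a gene was called at a Benjamini-Hochberg adjusted p under 0.05. Of all 13376 genes tested, 22.9% were called (17.3% higher and 5.61% lower), against 3 of the 75 members. The median log2 change was 0.07 over the members and 0.04 over all genes. The member median was -0.06 without PRC1-WT 1 and -0.09 without PRC1-CD 2, and 0.15 without PRC1-WT 2 and 0.13 without PRC1-CD 1, so its sign rests on single libraries. By subunit, 1 of 26 small-subunit members rose and none fell, and of 48 large-subunit members 1 rose and 1 fell. Before adjustment 12 of the 75 members had p under 0.05, against 4812 of the 13376 genes. Mrps23, a small-subunit protein found only in mitochondria, was at 48.0 and 61.3 RPKM in PRC1-WT and 75.3 and 71.3 in PRC1-CD (log2 change 0.43 ± 0.17, adjusted p = 0.126).

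Mrps26, a small-subunit protein without a bacterial homologue, was at 20.7 and 18.3 RPKM in the PRC1-WT libraries and at 42.5 and 40.4 in the PRC1-CD libraries. Both mutant libraries lay above both controls, and the log2 change was 1.06 ± 0.16 (SE, adjusted p = 0.00375, limma). Mrpl36, a small zinc-binding protein of the large subunit, was at 26.5 and 27.4 RPKM in PRC1-WT and at 40.4 and 40.0 in PRC1-CD, again without overlap (log2 change 0.56 ± 0.15, adjusted p = 0.0367). Its exons overlap those of Ndufs6 on the other strand, and the libraries do not record strand. Ndufs6 itself had a mean of 170 RPKM in the controls and 178 in the mutant (adjusted p = 0.789, limma). Mrpl39, a large-subunit protein found only in mitochondria, was at 60.5 and 69.8 RPKM in PRC1-WT and lower, at 43.8 and 42.4, in PRC1-CD (log2 change -0.58 ± 0.16, adjusted p = 0.0370). Without PRC1-WT library 1 or 2 the call for Mrps26 remained and the others were lost (adjusted p from 0.0870 to 0.152). Without PRC1-CD library 1 or 2 no member was called, and Mrps26 had an adjusted p of 0.0610 and 0.0538 at log2 changes of 1.02 and 1.09. Each of these refits leaves 1 library in a group, assumed to vary like the other group, and called 9.23 to 11.4% of all genes.

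The summed level of 14 granulosa markers was 183 and 246 RPKM in the PRC1-WT libraries and 352 and 357 in the PRC1-CD libraries. In PRC1-CD 5 of the 6 tested were called higher, against 17.3% of all genes. Most of that sum was Serpine2 (193 RPKM in the controls, 305 in the mutant). Fshr went from 0.550 to 15.3, so it passed the filter on low values only through PRC1-CD, where it was higher. Foxl2 was listed at 0 and 0.0650, and Amh at 0.0250 and 0. The part of these transcripts in the changes of Mrps26, Mrpl36 and Mrpl39 was not tested.

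In DKO oocytes, labelled as the knockout of both Pcgf1 and Pcgf6, 15 members rose, 5 fell and 55 of 75 were not called. That is 26.7% of the members, against 28.8% of the 12873 genes tested (17.5% higher and 11.3% lower). The median log2 change was 0.11 over the members and 0.03 over all genes. With quantile normalization of the libraries the members split into 13 higher and 7 lower (1857 and 2065 of all genes), and with median-ratio scaling into 11 and 9 (2042 and 1843). In the small subunit 6 rose and 1 fell of 26, and in the large subunit 9 rose and 4 fell of 48. A change of at least 1.5-fold was called for 3 members, namely Mrps26, Mrpl36 and Mrpl9. Without WT library 1 the members called were 13, with 20.9% of all genes called, and fitting only the WT and DKO groups gave 32, with 36.6%.

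Mrps26 again moved most. It was at 9.22, 15.4 and 12.5 RPKM in the WT libraries and at 32.9, 25.2 and 29.1 in the DKO libraries, with no overlap (log2 change 1.19 ± 0.18, adjusted p = 0.000891, limma). Mrpl36 was at 23.9, 21.6 and 21.5 RPKM in WT and 36.8, 36.2 and 35.8 in DKO (log2 change 0.68 ± 0.07, adjusted p = 0.000120). The partly overlapping Ndufs6 was 222 RPKM in WT and 258 in DKO (log2 change 0.22, adjusted p = 0.0426). Mrps11 and Mrpl46, whose 5′ parts overlap on opposite strands of chromosome 7, both rose: Mrps11 from 23.3 ± 2.36 to 32.7 ± 1.97 RPKM (adjusted p = 0.00720) and Mrpl46 from 87.5 ± 2.75 to 115 ± 6.64 (adjusted p = 0.00120). Without strand their shared reads cannot be told apart.

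Mrpl44, a large-subunit protein found only in mitochondria, went from 22.5 ± 0.429 to 30.8 ± 3.35 RPKM (log2 change 0.43 ± 0.10, adjusted p = 0.0117). Its overlapping neighbour Wdfy1 rose too, from 2.27 to 5.03 RPKM. Mrps10, a small-subunit protein with a bacterial homologue, was at 22.8, 29.1 and 28.0 RPKM in WT and 33.2, 36.4 and 36.0 in DKO (log2 change 0.40 ± 0.12, adjusted p = 0.0283). Mrps23, which served as the marker of the set, was at 52.5, 53.8 and 55.4 RPKM in WT and 68.3, 68.9 and 64.3 in DKO (log2 change 0.31 ± 0.08, adjusted p = 0.0154). The WT and DKO libraries of Mrpl44, Mrps10 and Mrps23 did not overlap. The call of Mrps10 was lost without WT 1 or 3 or DKO 2 or 3 (adjusted p from 0.0569 to 0.107), without the filter on low values (0.0561) and with a replicate block (0.0537), and that of Mrps23 without WT 1 or DKO 2 (0.0555 and 0.0530).

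The largest fall in DKO oocytes was that of Mrpl9, a large-subunit protein with a bacterial homologue. It was at 62.2, 69.1 and 62.8 RPKM in WT and at 43.3, 32.1 and 30.9 in DKO (log2 change -0.87 ± 0.17, adjusted p = 0.00427, limma). Its exons overlap Oaz3 on the other strand, which was 3.25 RPKM in WT and 4.58 in DKO. Mrpl39 was at 67.8, 62.9 and 58.4 RPKM in WT and 45.3, 51.6 and 53.6 in DKO, lower without overlap (log2 change -0.32 ± 0.09, adjusted p = 0.0238). Mrps9 fell from 19.2 ± 1.07 to 15.3 ± 1.26 RPKM (adjusted p = 0.0465), Mrpl35 from 113 ± 2.90 to 93.4 ± 2.28 (adjusted p = 0.0103) and Mrpl34 from 272 ± 8.56 to 229 ± 9.18 (adjusted p = 0.00819). The call of Mrpl39 was lost without WT 1 or 2 or DKO 1 (adjusted p from 0.0671 to 0.0927), and that of Mrps9 without any 1 of the 6 libraries (0.0631 to 0.152).

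The PRC1-CD and DKO sets share no library. The log2 changes had the same sign in both for 53 of the 75 tested members (70.7%), and for 72.7% of the 12428 genes tested in both tables, so the members were near the background. Mrps26 and Mrpl36 were called higher, and Mrpl39 lower, in both sets. Across the 75 genes Pearson's r of the changes was 0.71, against 0.60 over all genes, a description across genes that are not independent replicates. The median standard error of a member was 0.17 in the PRC1-CD set and 0.08 in the DKO set.

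**Figure D2:**
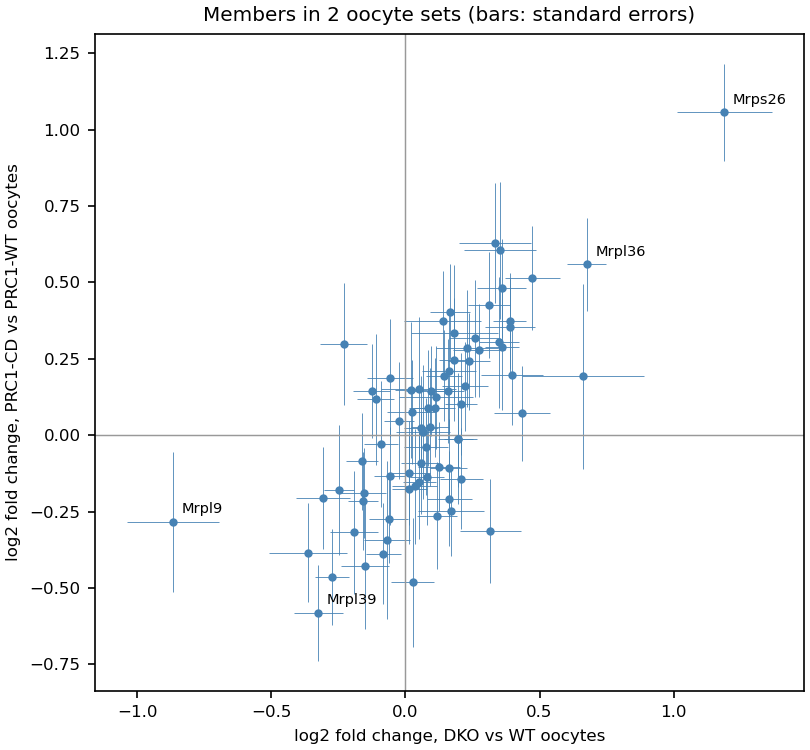
Log2 fold change of each of the 75 tested members in DKO against WT oocytes (x axis) and in PRC1-CD against PRC1-WT oocytes (y axis), with standard errors as bars. Mrps26 lies far to the upper right, Mrpl36 follows it, Mrpl39 lies at the lower left, and Mrpl9 is the point furthest to the left.

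In TKO oocytes 29 members rose and 12 fell of 75, or 54.7%, against 51.3% of all 12873 genes (31.2% higher and 20.1% lower). The median log2 change was 0.12 over the members and 0.09 over all genes, and 7 members were called with at least 1.5-fold. The split depended on how libraries were scaled, for the members as for all genes. Quantile normalization gave 22 members higher and 17 lower, and median-ratio scaling 15 and 18. Over all genes the split was 4013 and 2592, with quantile normalization 3244 and 3085, and with median-ratio scaling 3293 and 3211. For every member named here as changed in oocytes, the sign was the same under each scaling. In the small subunit 11 rose and 5 fell of 26. In the large subunit 18 rose and 6 fell of 48, and Mrps36 fell. Among large-subunit proteins with bacterial homologues 13 of 29 rose and 3 fell, and among those found only in mitochondria 5 of 19 rose and 3 fell.

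Mrps10 had the largest change of any member. It was at 22.8, 29.1 and 28.0 RPKM in the WT libraries and at 6.01, 4.48 and 5.12 in the TKO libraries (log2 change -2.15 ± 0.12, adjusted p = 8.85e-07, limma). The DKO libraries, at 33.2 to 36.4 RPKM, lay above all WT libraries, and all TKO libraries lay far below both. Against DKO the log2 change was -2.55 ± 0.12 (adjusted p = 4.78e-07). Mrps10 is part of the head of the small subunit.

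Mrpl33 was at 263, 269 and 288 RPKM in WT, 237, 242 and 219 in DKO and 138, 142 and 113 in TKO. Every TKO library was below every DKO library, and every DKO library below every WT library. The difference between DKO and WT did not pass the test. In TKO the log2 change was -1.06 ± 0.09 against WT (adjusted p = 1.23e-05, limma) and -0.83 ± 0.09 against DKO (adjusted p = 7.24e-05). Mrpl39 was at 31.8, 33.6 and 37.3 RPKM in TKO, below the DKO libraries of 45.3 to 53.6 and the WT libraries of 58.4 to 67.8. Its log2 change was -0.86 ± 0.09 against WT (adjusted p = 5.06e-05) and -0.54 ± 0.09 against DKO (adjusted p = 0.00102).

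Mrpl9 was at 33.1, 53.9 and 38.7 RPKM in TKO, all below WT (log2 change -0.64 ± 0.17, adjusted p = 0.0104, limma), and its difference from DKO did not pass the test. Mrpl51, a large-subunit protein found only in mitochondria, fell from 57.2 ± 0.499 to 40.7 ± 5.33 RPKM (log2 change -0.49 ± 0.09, adjusted p = 0.00134). Mrps36, the member outside the ribosome, fell from 746 ± 40.7 to 603 ± 22.2 RPKM (log2 change -0.31 ± 0.06, adjusted p = 0.00195).

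On the rising side Mrps26 was at 36.4, 43.1 and 30.8 RPKM in TKO against 9.22 to 15.4 in WT (log2 change 1.51 ± 0.18, adjusted p = 9.32e-05, limma). TKO and DKO libraries of Mrps26 overlapped. Mrps6, a small-subunit protein with a bacterial homologue, was at 53.8, 67.5 and 64.9 RPKM in WT and 96.9, 126 and 93.6 in TKO (log2 change 0.75 ± 0.13, adjusted p = 0.00121). Its exons overlap Slc5a3 on the same strand. Mrpl28 rose from 109 ± 11.6 to 159 ± 12.2 RPKM (log2 change 0.55 ± 0.08, adjusted p = 0.000534) and Mrpl2, which sits near the peptidyl transferase centre, from 135 ± 3.77 to 193 ± 2.56 (log2 change 0.52 ± 0.07, adjusted p = 0.000234). Mrpl36 was 22.3 ± 1.37 in WT and 30.02 ± 1.43 in TKO (log2 change 0.41 ± 0.07, adjusted p = 0.00109). Mrps23 was at 60.5, 73.4 and 62.7 RPKM in TKO, above the WT libraries of 52.5 to 55.4 (log2 change 0.27 ± 0.08, adjusted p = 0.0162), and its call was lost without WT 1 (0.0567) and with median-ratio scaling (0.0993).

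Mrps34 was called higher in TKO (log2 change 0.60 ± 0.23, adjusted p = 0.0482, limma), but at a very low level: 0.410, 0.510 and 0.380 RPKM in WT and 0.770, 2.06 and 0.890 in TKO. It passed the filter on low values only through the mutant groups, so it could be tested only because it was higher there. The call was lost without any 1 WT library or without TKO 2 or 3 (adjusted p from 0.0514 to 0.149). The DKO libraries were at 1.92, 1.23 and 0.790 RPKM (adjusted p = 0.0521). Mrpl19 passed the filter in neither oocyte table. Its mean was 0.423 RPKM in WT libraries, 0.720 in DKO libraries and 0.667 in TKO libraries, and in the catalytic-dead set it was 0.450 in controls and 0.510 in the mutant.

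**Figure D3:**
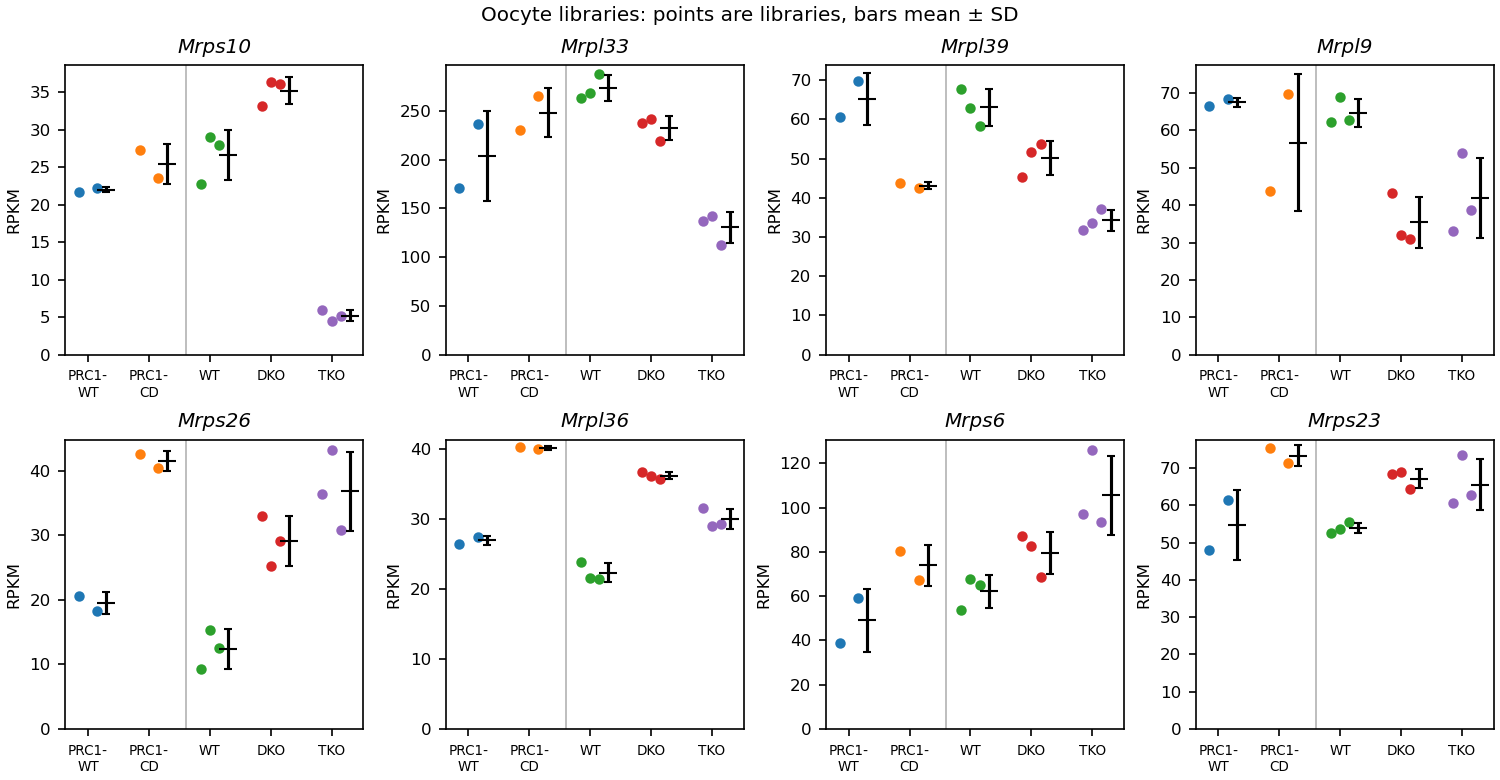
RPKM of 8 members in each oocyte library (points) with the group mean and SD (bars), the PRC1 catalytic-dead set left of the vertical line and the knockout set right of it, on linear axes from 0. Mrps10 is near 5 RPKM in all 3 TKO libraries and above 20 elsewhere, and Mrps26 is higher in PRC1-CD, DKO and TKO libraries than in their controls.

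Setting TKO against DKO oocytes, which asks what the added loss of Mll2 does, 15 members were higher in TKO and 19 lower of 75. That is 45.3%, against 48.6% of all genes (26.8% higher and 21.8% lower), with a median log2 change of -0.05 over the members and 0.04 over all genes. Quantile normalization gave 14 members higher and 24 lower (3447 and 2963 of all genes), and median-ratio scaling 12 and 25 (3036 and 3181). The small subunit had 6 higher and 8 lower of 26, and the large subunit 9 higher and 11 lower of 48.

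The largest falls from DKO to TKO were those of Mrps10, Mrpl33, Mrps2, Mrpl20 and Mrpl39. Mrps2 went from 20.2 ± 0.756 to 13.0 ± 1.87 RPKM (log2 change -0.60 ± 0.10, adjusted p = 0.00102, limma) and Mrpl20 from 22.6 ± 3.10 to 14.95 ± 3.82 (log2 change -0.58 ± 0.16, adjusted p = 0.0133). Of the members that were higher in TKO, Mrps9 moved most. It was at 16.0, 16.1 and 13.9 RPKM in DKO and at 26.4, 27.5 and 22.0 in TKO (log2 change 0.68 ± 0.10, adjusted p = 0.000478). The WT libraries of Mrps9, at 18.0, 19.8 and 19.8 RPKM, lay between the DKO and TKO libraries. Mrps5 went from 17.9 ± 1.496 to 24.8 ± 1.24 RPKM (adjusted p = 0.00176), Mrpl2 from 144 ± 13.4 to 193 ± 2.56 (adjusted p = 0.000846), Mrps6 from 79.5 ± 9.58 to 106 ± 17.9 (adjusted p = 0.0319) and Mrps18c from 425 ± 18.7 to 557 ± 27.7 (adjusted p = 0.000387). The call of Mrps6 was lost without DKO 2 or 3 or TKO 2 (adjusted p from 0.0559 to 0.118), without the filter (0.0784), and with quantile normalization (0.0501) or median-ratio scaling (0.0548).

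The number of genes at 1 RPKM or more was 11380 to 11464 in the WT libraries, 11870 to 12088 in DKO and 11684 to 11980 in TKO. The summed granulosa markers were 290 to 311, 328 to 369 and 367 to 388 RPKM, of which Serpine2 made up 273, 332 and 352. Of the 6 tested, 3 were higher and 1 lower in DKO, and 3 and 1 in TKO, where 28.8% and 51.3% of all genes were called. Foxl2 was listed at 0 in WT and DKO and at 0.00667 in TKO, and Amh at 0, 0.0167 and 0.0167. The part of the granulosa markers in the member changes was not tested.

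**Figure D4:**
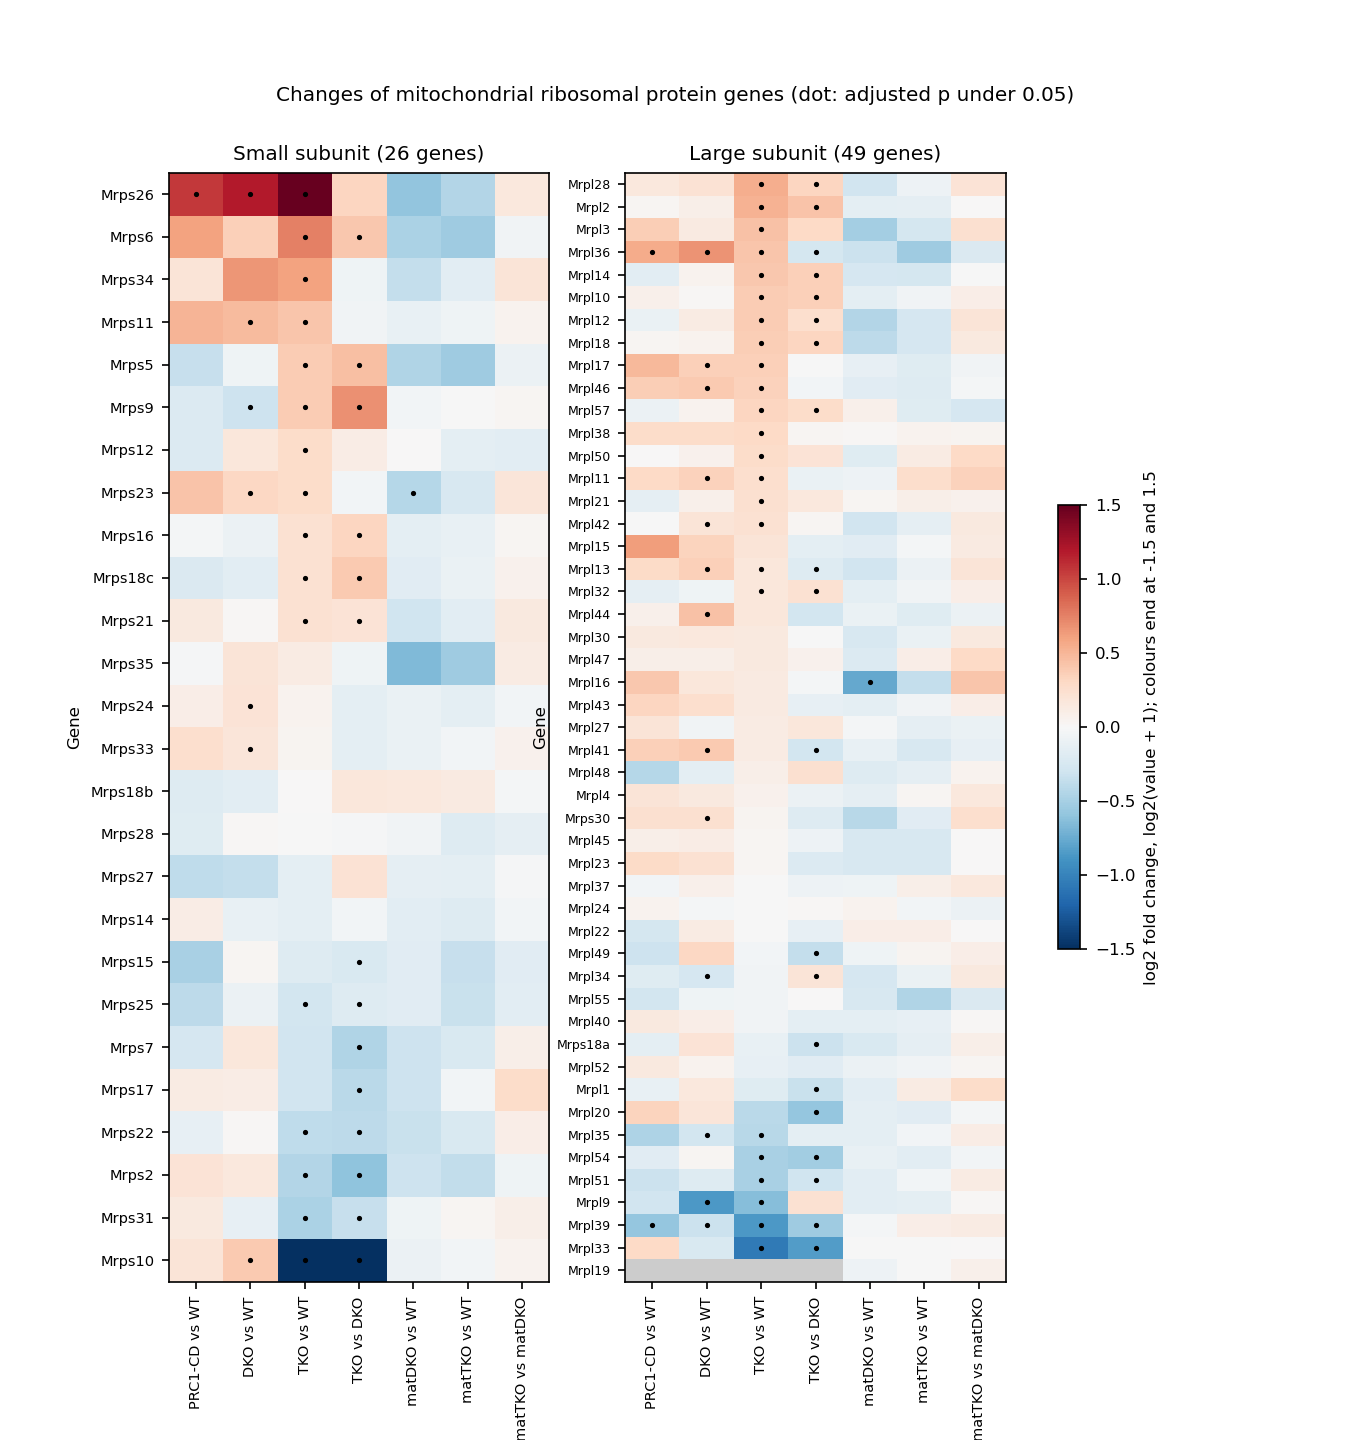
Log2 fold change of each small-subunit (left) and large-subunit (right) member in the 7 comparisons (columns), ordered by the change in TKO against WT oocytes; red is higher, blue lower, grey not tested, colours end at -1.5 and 1.5, and a dot marks an adjusted p under 0.05. Dots are dense in the TKO columns and scarce in PRC1-CD, and 2 stand in the morula columns, for Mrps23 and Mrpl16.

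Members that share a start region with a neighbouring gene read from the other strand were looked at separately, because both starts then lie in 1 short region. Starts were taken here as the outermost ones of GENCODE, which for Mrpl36 is not the start whose window was printed. Pairs whose starts overlap by more than a short stretch were not counted. Mrps11 and Mrpl46 are such a pair, and both rose in TKO against WT oocytes (log2 changes 0.42 and 0.35). Among the rest, a divergent partner with its start within 1000 bases was found for 19 of the 76 members. In 16 pairs both genes were tested in the knockout oocytes. In TKO against WT oocytes 11 of these 16 members and 8 of the 16 partners were called, where 51.3% of all genes were. Both genes of a pair were called in 6. They moved the same way in 2 pairs, Mrpl2 with Klc4 and Mrps18c with Helq, and in opposite directions in 4, Mrpl10 with Lrrc46, Mrpl51 with Ncapd2, Mrpl57 with Ska3 and Mrps34 with Eme2. Of these, Mrps34 (0.433 RPKM in WT) and Ncapd2 (0.897 in WT, 1.37 in TKO) passed the filter on low values only through groups where they were higher. Exons of 22 of the 76 members overlap those of another annotated gene, on the opposite strand in 20, and their values may hold reads of both.

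In morulae with a maternal DKO, 2 of 76 members fell and none rose, or 2.63%, against 1.74% of 13056 genes tested (0.329% higher and 1.41% lower). The median log2 change was -0.16 over the members and -0.09 over all genes. Of the 76 members, 17 had an unadjusted p under 0.05, against 2264 of the 13056 genes. A positive sign was seen in 7 of the 76 members and in 5077 of all genes. With quantile normalization the medians over members and all genes were -0.06 and 0.01. The values below are TPM.

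The summed level of 12 markers of the morula stage was 1411 to 4335 TPM in WT, 631 to 2974 in matDKO and 915 to 2858 in matTKO, mostly from the keratins Krt18 (means of 1228, 667 and 702 TPM) and Krt8 (942, 516 and 601). None of the 12 was called by limma in either maternal mutant against WT, and no marker had a group mean of 0. An unadjusted p under 0.05 was found for 4 and 3 of them, against 2264 and 1679 of 13056 genes. Genes at 1 TPM or more numbered 11638 to 12432 in WT, 10902 to 12240 in matDKO and 11250 to 12482 in matTKO. The 5 lowest marker sums in matDKO, and 4 of its 5 lowest member shares, were those of matDKO 6 to 10. Their part in the member changes was not tested.

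Mrpl16, a large-subunit protein with a bacterial homologue, ranged from 29.1 to 51.6 TPM in WT morulae (median 45.2, n = 10) and from 9.26 to 36.4 in matDKO (median 28.3). The groups overlap, and the log2 change was -0.76 ± 0.19 (adjusted p = 0.0365, limma). Mrps23 ranged from 65.7 to 101 TPM in WT (median 85.3) and from 37.1 to 77.9 in matDKO (median 66.5), with a log2 change of -0.43 ± 0.12 (adjusted p = 0.0490). Without the 6 libraries that stood apart, 3 members were called, against 2.23% of all genes. Mrpl16 then kept its call (log2 change -0.82, adjusted p = 0.0240, limma) and Mrps23 lost it (-0.41, adjusted p = 0.0734). Leaving out single libraries gave between 0 and 5 calls: 0 without any 1 of WT 3 to 8 or matDKO 7 or 9, 1 without WT 1, 2 or 10 or matDKO 6, 8 or 10, 4 without matDKO 3, and 5 without WT 9. These refits called from 0.651% (without WT 5) to 3.65% (without WT 9) of all genes.

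Mrps26, which rose in all oocyte mutants, ranged from 81.8 to 167 TPM in WT morulae (median 124), 56.5 to 131 in matDKO (median 84.6) and 36.3 to 114 in matTKO (median 102). Its log2 change was -0.59 ± 0.17 in matDKO (adjusted p = 0.0742, limma) and -0.43 ± 0.17 in matTKO (adjusted p = 0.270), and neither passed the test. Mrps10 was 113 ± 18.8 TPM in WT, 108 ± 27.2 in matDKO and 115 ± 42.2 in matTKO. The mean of Mrpl33 was 939 ± 80.0, 936 ± 87.3 and 950 ± 201 TPM, and that of Mrpl39 97.5 ± 17.8, 95.8 ± 18.4 and 108 ± 38.9. None of these 3 genes was called in morulae.

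In matTKO against WT morulae limma called no member, against 0.567% of all genes (0.176% higher and 0.391% lower). The unadjusted p was under 0.05 for 11 of 76 members and for 1679 of 13056 genes. The median log2 change was -0.14 over the members and -0.06 over all genes. The median over the members was -0.07 without matTKO 9, with quantile normalization or without the 6 libraries standing apart. In matTKO against matDKO limma also called no member, against 0.0689% of all genes (0.046% higher and 0.023% lower). The unadjusted p there was under 0.05 for 4 of 76 members and for 867 of 13056 genes. Mrps23 was at 58.3 to 81.3 TPM in matTKO (median 71.0), with a log2 change of -0.24 ± 0.12 (adjusted p = 0.371). Mrpl16 was at 18.4 to 47.7 TPM (median 35.2), with a log2 change of -0.35 ± 0.19 (adjusted p = 0.448).

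**Figure D5:**
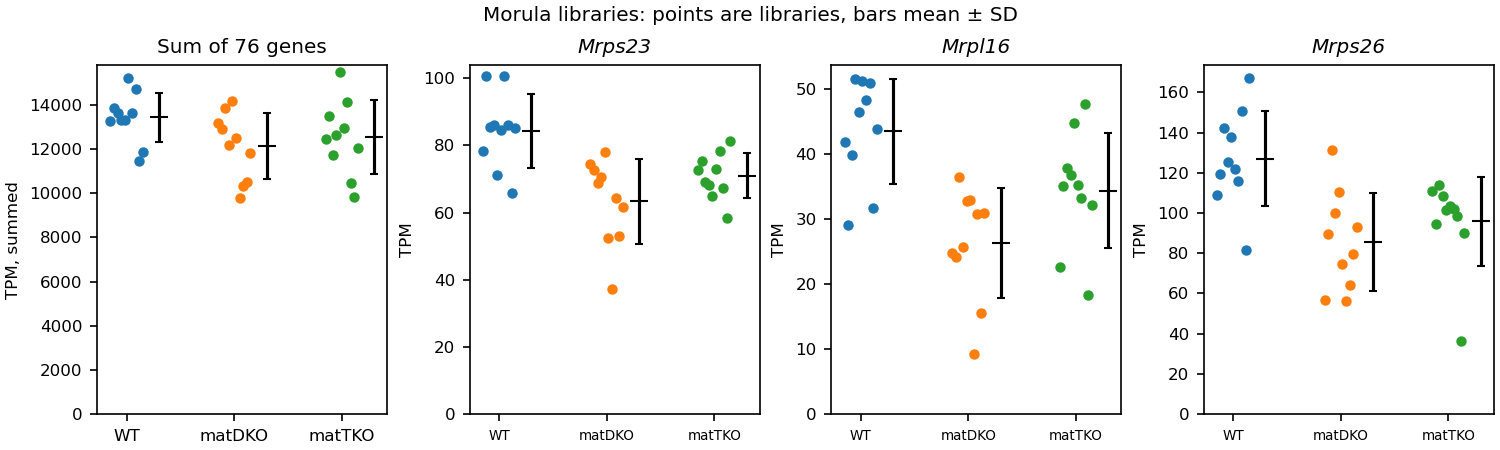
TPM in each morula library (points) with the group mean and SD (bars) for the sum of the 76 members, Mrps23, Mrpl16 and Mrps26, on linear axes from 0. All groups overlap in each panel, and the matDKO mean is the lowest in the 4 panels.

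Genes that work with the mitochondrial ribosome were counted from lists of known roles. Subunits that carry other names had 0 higher and 1 lower of 5 in DKO and 1 and 1 in TKO oocytes: Dap3, a GTP-binding protein of the small subunit, fell from 234 to 207 RPKM in both (adjusted p = 0.0390 and 0.0237, limma), and Aurkaip1 rose from 97.8 to 118 in TKO (adjusted p = 0.00283). Of the assembly factors tested, 1 rose and 2 fell of 22 in PRC1-CD, 4 and 1 in DKO, and 5 and 6 in TKO. The shares called were 13.6%, 22.7% and 50%, against 22.9%, 28.8% and 51.3% of all genes. In DKO and TKO oocytes the single largest of these changes (Mterf3 at a log2 change of 1.91, Fastkd2 at -2.72) exceeded that of any member. In PRC1-CD none did: the factors spanned -0.74 to 0.64, and the member Mrps26 was at 1.06. Ddx28, a helicase, fell in PRC1-CD (51.0 to 31.7 RPKM) and DKO (46.5 to 31.1), the RNA methyltransferase Nsun4 fell in PRC1-CD (65.9 to 45.7), and Rpusd3 rose in DKO (10.6 to 16.3). Fastkd2, an RNA-binding protein needed for assembly of the large subunit, went from 19.7 ± 0.658 RPKM in WT to 23.2 ± 1.496 in DKO but only 2.16 ± 0.372 in TKO (TKO against WT log2 change -2.72 ± 0.10, adjusted p = 9.07e-08). In PRC1-CD Fastkd2 rose from 18.8 to 29.0 RPKM (adjusted p = 0.0317). Gtpbp10, a GTPase of large-subunit assembly, was 9.28 ± 0.136, 9.37 ± 0.469 and 1.10 ± 0.0503 RPKM (log2 change -2.29 ± 0.09, adjusted p = 1.01e-07). Mterf3 went from 11.1 ± 0.0400 RPKM in WT to 45.3 ± 9.71 in DKO, and stood at 20.6 ± 6.73 in TKO (DKO against WT log2 change 1.91 ± 0.23, adjusted p = 0.000231).

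Translation factors rose in 3 of 13 in DKO and 7 of 13 in TKO, with none lower in either, where 17.5% and 31.2% of all genes rose. These lists, unlike the members, were counted only in the main fit and not under the other scalings. Tufm, the elongation factor that brings charged tRNA to the ribosome, went from 7.97 RPKM in WT to 13.4 in DKO and 12.3 in TKO (adjusted p = 0.00516 and 0.00811, limma). Taco1, an activator of translation, went from 3.60 to 6.51 and 5.88, and Oxa1l, which inserts new proteins into the inner membrane, from 8.85 to 15.3 in TKO. The elongation factor Tsfm rose in DKO (18.3 to 24.1 RPKM), and from DKO to TKO Gfm1 rose (19.1 to 25.8) and Mtrf1 rose (38.2 to 48.9). In morulae Mrrf fell in matDKO (14.0 to 8.38 TPM, adjusted p = 0.0490) and Mtrf1 in matTKO (6.59 to 1.42 TPM, adjusted p = 0.0339). In PRC1-CD none of the 13 was called by limma, and none had an unadjusted p under 0.05, where 4812 of 13376 genes did. Of the aminoacyl-tRNA synthetases 1 fell of 13 in PRC1-CD, 1 rose and 1 fell of 11 in DKO, and 2 rose and 3 fell in TKO, or 7.69%, 18.2% and 45.5% called, against 22.9%, 28.8% and 51.3% of all genes. Tars2 was lower in PRC1-CD (4.94 to 1.84 RPKM), DKO (3.68 to 2.29) and TKO (2.22), and Rars2 in TKO (27.8 to 15.9). Ears2 (0.680 RPKM in WT, 1.29 in DKO) and Iars2 (0.617 in WT, 1.81 in TKO) were called, but could be tested only through the mutant groups where they were higher. Of 6 genes of mitochondrial transcription, 1 fell in PRC1-CD, 3 rose and 1 fell in DKO, and 1 rose in TKO. The shares called were 16.7%, 66.7% and 16.7%, against 22.9%, 28.8% and 51.3% of all genes. Polrmt, the mitochondrial RNA polymerase, fell from 8.31 to 2.39 RPKM in PRC1-CD (log2 change -1.47 ± 0.19, adjusted p = 0.00218, limma). It also fell from 9.72 to 5.76 in DKO (adjusted p = 0.0170, limma) and was not called in TKO. The transcription factor Tfam rose from 4.22 RPKM to 6.20 in DKO and 6.67 in TKO, and Tefm from 7.99 to 12.5 in DKO, while from DKO to TKO Tefm fell to 6.32 (adjusted p = 0.00113). Of 5 tested regulators of mitochondrial genes, Yy1 (0.990 RPKM in WT, 2.40 in TKO) and Pprc1 (0.757 and 1.43) were called in TKO, and both passed the filter only through the mutant groups where they were higher. From DKO to TKO Yy1 (1.05 to 2.40) and Ppargc1b (2.14 to 2.99) rose.

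Mrpl53, which is left out of the member set, lies on chromosome 6 near Pcgf1, one of the deleted genes. Its mean was 133 ± 0.836 RPKM in the WT libraries, 142 ± 11.04 in DKO and 112 ± 14.3 in TKO oocytes, and limma called it lower in TKO against WT (log2 change -0.26 ± 0.09, adjusted p = 0.0398). In PRC1-CD it was 104 against 145 RPKM (adjusted p = 0.132). In morulae it was 250, 236 and 181 TPM in WT, matDKO and matTKO, with no call.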

How the data were processed

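RNA was measured in mouse full-grown oocytes (13 libraries) and morulae (30 libraries). Per the labels' protocols, cDNA was made with the SMART-Seq v4 kit and libraries with Nextera XT, a chemistry that does not mark strand. The tools listed in the submitters' processing notes, with no role given, are featureCounts 1.6.0, RSEM 1.3.1, STAR (2.7.3 and 2.7.6) and Trim Galore 0.6.4, on mm10 and GRCm38. The authors deposited RPKM (per length and library size) for the oocytes. The deposited morula values are also titled RPKM but sum to 999421 to 999922 in each library, and were taken as TPM made by the authors; the test planned for RPKM was kept.

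From these values, 27 date-like gene names were dropped from each oocyte table. log2(value + 1) was fitted with limma 3.58.1 in R 4.3.3 (eBayes with trend, two-sided) over all genes of a table whose mean reached 1 in any group, all groups of a table sharing the spread. Adjusted p-values in the text are from limma with the Benjamini-Hochberg method over all genes, at a threshold of 0.05. Errors of levels are SDs and those of log2 changes standard errors; this scale understates the change of low genes. Depth is unknown, so no counting interval was computed. The fit was tested on simulated data. Promoters are from RefSeq (the first listed start of each gene) and gene coordinates from GENCODE, both on GRCm38.p6. The 7 comparisons followed the design text. The members and all gene lists were chosen with earlier results of these data known, so no test was made over a list. Named members were, in each comparison, up to 5 called with the largest rise and up to 5 with the largest fall; those called alike in PRC1-CD and DKO; those called in opposite directions in any 2 comparisons against wild type; the 5 highest and 5 lowest in WT oocytes and WT morulae; those not passing the filter; Mrps23; called subunits with other names; and up to 3 called genes of each other mitochondrial list. Further names were chosen after their values were seen. Alternatives were the pseudocount, the filter, 2 scalings, a replicate block, fitting only the groups compared, and leaving out libraries. The last of these, for morulae, and leaving out the 6 morula libraries standing apart (beyond 2 median absolute deviations) were chosen after seeing the data. No value column was left unmapped.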

Additional observations from a re-analysis of the deposited data

Results flagged for a closer look

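In 24 morula groups of 10 libraries checked for a library far from the rest (a member or the summed level in 1 genotype), 4 had one. The cut-off is meant to flag about 1 in 20 independent groups of normal values. These groups share libraries and their values were not logged, so that rate may not hold and no excess is read from the count. Mrpl33 had a WT morula library at 744 TPM, with the next lowest at 919, and a matTKO library at 1431 TPM, with the next highest at 1096. Mrpl39 had a matTKO library at 206 TPM, with the next highest at 126. Mrps26 had a matTKO library at 36.3 TPM, with the next lowest at 90.2.

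Some members lay higher in every mutant oocyte library than the WT oocyte mean and lower in every maternal mutant morula library than the WT morula mean. For DKO oocytes and matDKO morulae the log2 changes were 0.17 and -0.76 for Mrpl16, 0.0575 and -0.40 for Mrpl18, 0.14 and -0.51 for Mrpl3, and 0.16 and -0.25 for Mrpl30. They were 0.31 and -0.43 for Mrps23, and 0.20 and -0.66 for Mrps35. For TKO oocytes and matTKO morulae they were 0.27 and -0.24 for Mrps23, 1.51 and -0.43 for Mrps26, and 0.13 and -0.53 for Mrps35. The differences between oocytes and morulae were not tested, since the tables were normalised separately. Only Mrps23 was called in both stages, in DKO oocytes and matDKO morulae. A positive change was seen in 54 of 75 members in DKO oocytes and in 7 of 76 in matDKO morulae. Over all genes it was 6923 of 12873 and 5077 of 13056. How many of all genes show the pattern was not counted.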

How the results depend on the processing

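In comparisons where a member was called, its direction stayed the same under every alternative run. Calls were lost in 203 of 1221 such single-gene refits. Signs of changes not called in the main fit were not compared. Without the filter on low values PRC1-CD had 1 called member (8.92% of all genes) and matDKO 0 (0.339%). With a pseudocount of 0.1 matDKO had 1 (1.29%), and with median-ratio scaling 1 (1.82%). Fitting only the 2 groups compared gave 32 in DKO against WT (36.6%). The summed level (log2 ratio) was -0.0456 in DKO, -0.0625 in TKO and -0.0169 in TKO against DKO with median-ratio scaling, and -0.0046 in DKO and 0.0018 in TKO with quantile normalization; the cause was not tested. Leaving out 1 library gave 13 (without WT 1) to 16 calls in DKO, with 18.8 to 22.9% of all genes called. It gave 33 to 41 in TKO (41.7 to 51.2%), 27 to 34 in TKO against DKO (39.9 to 50%), and 0 to 5 in matDKO (0.651 to 3.65%). The morula refits were chosen after seeing the data. The summed log2 ratio then ranged from -0.13 to 0.09 in PRC1-CD, 0.01 to 0.04 in DKO, 0.04 to 0.06 in TKO, 0.01 to 0.03 in TKO against DKO, -0.17 to -0.12 in matDKO, -0.14 to -0.07 in matTKO and 0.01 to 0.08 in matTKO against matDKO. With the replicate number as a block, members called were 3 in PRC1-CD, 17 in DKO, 39 in TKO and 33 in TKO against DKO. Of all genes 24.4%, 26.1%, 49.2% and 46.4% were then called. In matDKO 9 members and 4.65% of all genes were called, against 2 and 1.74% in the main fit. The block gave 0 in both other morula comparisons (1.4% and 0.123% of all genes). Same-numbered pairs correlated above 0.1 in 1 of 9 oocyte and 13 of 30 morula pairs of the knockout sets. Among 3 oocyte or 10 morula libraries of another group, the closest had the same number in 6 of 18 and 17 of 60 comparisons. In the catalytic-dead set, with 2 libraries per group, deviations from a group mean mirror each other. All 4 comparisons there repeat 1 correlation of 0.0884, so their count cannot show pairing. The main fit did not use the numbers, and whether they pair morula libraries was not settled. The call of Mrps23 in matDKO was lost in 19 of 27 alternatives and that of Mrpl16 in 9, that of Mrps34 in TKO in 8 of 12, and that of Mrps9 in DKO in 8 of 12. The calls of Mrpl36 and Mrpl39 in PRC1-CD were lost in 5 of 9 each and that of Mrps26 in 2. The calls of Mrps10, Mrpl33, Mrpl39 and Mrps26 in TKO were kept in all 12. Depth is unknown.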
